A study of Mus musculus with 32 samples.

Results

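The genes described here make the peptides that MHC class I molecules show at the cell surface and bring them to those molecules: the immunoproteasome subunits Psmb8, Psmb9 and Psmb10, the proteasome activator subunits Psme1 and Psme2, the peptide transporter subunits Tap1 and Tap2, tapasin (Tapbp) and beta-2-microglobulin (B2m). Members were the probe sets whose platform gene symbol was one of these 9 genes. This gave 10 probe sets for 8 genes, out of 13057 probe sets on both array designs, controls not counted, and 6137 genes with a probe set of their own. The only probe set for Psme2 is annotated to Psme2 and Psme2b together, so it was kept out of all counts and is given as a shared probe set. The genes were chosen by function, but also selected on their levels in these same arrays, because their change between day 0 and the later days was already known. Changes from day 0 are therefore a description, and calls of members counted for them are not read as tests. Tests are given for the comparisons that leave that change out.

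The proteasome cuts cellular proteins into peptides. Interferon gamma induces 3 alternative catalytic subunits, which replace the constitutive ones in newly assembled particles and favour peptides that fit the MHC class I groove. It also induces the PA28 activator, the TAP transporter that moves peptides into the endoplasmic reticulum, and the heavy chains that bind the peptides there with beta-2-microglobulin.

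UB/OC-1 is a conditionally immortal mouse cell line from the embryonic hearing organ, the organ of Corti, and total RNA of it was hybridised to 2 array designs, a and b, 16 arrays each. In experiment A cells were taken at 33 °C (day 0) and after 1, 2, 3, 4, 5, 6, 7, 8, 9, 11 and 14 days at 39 °C, the temperature at which the labels call the conditions differentiating. Experiment B, which the labels call a replica, has days 0, 2, 4 and 9. On each design, day 0 has 2 arrays. The days at 39 °C were split into an early phase of 4 arrays (through day 3), a middle phase of 5 (through day 7) and a late phase of 5 (from day 8 on). All samples are this 1 line, with no genotype or drug contrast, and day 0 is the only group at 33 °C. The line comes from the Immortomouse, whose temperature-sensitive T antigen is driven by the interferon-inducible promoter of an MHC class I heavy chain gene, H2-K1, and such lines are commonly grown at 33 °C with interferon gamma. The labels give temperature and day but no medium, so effects of temperature, time, differentiation and medium on these genes cannot be told apart. The labels also do not say that arrays within a phase come from separate cultures, so the p-values reflect the scatter among these samples alone. Arrays of a phase differ in day or experiment and are not repeats of 1 condition. In the fit of phases their scatter therefore also holds differences between days and between experiments, from which a technical part cannot be separated.

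The values are array intensities, with a floor (141 for design a, 198 for design b) below which a value is not told apart from noise. Between 44.3% and 50.8% of probe sets were above the floor on the 16 arrays of design a, and between 30.9% and 40.4% on design b. Of the epithelial marker probe sets of the cochlea, 2 of 15 were above the floor on all 16 arrays (Bmp4 and Krt18) and 4 on none (Epcam, Sox2, Atoh1 and Cdh1). Some of these markers changed late against day 0, as most members differed: Krt18, a keratin of simple epithelia, fell 6.23-fold, Bmp4, a secreted growth factor, rose 4.31-fold and the ear transcription factor gene Gata3 rose at least 3.01-fold (limma, adjusted p = 0.000134, 0.000127 and 0.0311), while 8 of the 11 tested did not pass. Over all probe sets tested, 6.08% were called lower and 4.84% higher in this comparison. The part of the marker changes in those of the members was not tested. Cells of the immune system express the member genes strongly, so leukocyte markers were read beside them. Of 13 leukocyte probe sets, 6 were never above the floor (Spi1, Cd4, Csf1r, Cd79a, Adgre1 and Cd8a) and 4 were above it on every array (Fcer1g, Ptprc, Lyz2 and Cd14), and their summed intensity was 2186 to 6875 at day 0, 4039 to 8178 early, 3765 to 10825 in the middle phase and 5109 to 14644 late. These sums mix both experiments and include values under the floor. Of the 7 leukocyte probe sets tested, 0 were called late against day 0, with a median log2 change of 0.56. In experiment B against A at matched days 2 of the 7 were called lower, as were 9.25% of all probe sets. The part of these markers in the member values was not tested. Because the RNA is from whole cultures, fewer cells of a type and less RNA per cell cannot be told apart.

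The promoters of the members are shown because the genes share a class of regulator and several shared a course over time. RefSeq windows on GRCm38.p6, from 250 bases before to 50 bases after the start of the transcript, were found for 8 of the 9 genes (9 windows). They were searched on both strands for the letters GAAANNGAAA, the core of an interferon-stimulated response element bound by IRF factors, and TTCNNNGAA, the core of a gamma-activated site. The first was in 2 of the 9 member windows and in 3.44% of all 32851 promoter windows, and the second in 1 of 9 and in 8.3%. Windows with a match are printed 5′ to 3′ on the strand of the gene with the match in capitals: Psmb8 at chr17:34197945-34198244 on the plus strand, Psme1 at chr14:55578244-55578543 on the plus strand and B2m at chr2:122147437-122147736 on the plus strand. The Tap1 window, at chr17:34187306-34187605 on the plus strand, is shown because it overlaps by 275 bases that of Psmb9 (chr17:34187281-34187580, minus strand): these genes are transcribed away from each other from 1 shared stretch. It has no capitals because neither motif is in it.
Psmb8: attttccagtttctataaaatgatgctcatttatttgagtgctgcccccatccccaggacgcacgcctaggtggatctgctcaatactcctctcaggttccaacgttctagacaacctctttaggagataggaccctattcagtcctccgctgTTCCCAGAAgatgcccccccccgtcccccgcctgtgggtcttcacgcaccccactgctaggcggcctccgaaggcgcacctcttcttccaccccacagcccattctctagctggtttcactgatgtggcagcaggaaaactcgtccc
Psme1: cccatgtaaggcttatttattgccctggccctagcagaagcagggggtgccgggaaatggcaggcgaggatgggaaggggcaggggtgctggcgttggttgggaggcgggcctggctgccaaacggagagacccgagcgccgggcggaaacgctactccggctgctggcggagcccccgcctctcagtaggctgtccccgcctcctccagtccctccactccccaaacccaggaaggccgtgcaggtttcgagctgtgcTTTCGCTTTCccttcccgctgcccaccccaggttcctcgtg
B2m: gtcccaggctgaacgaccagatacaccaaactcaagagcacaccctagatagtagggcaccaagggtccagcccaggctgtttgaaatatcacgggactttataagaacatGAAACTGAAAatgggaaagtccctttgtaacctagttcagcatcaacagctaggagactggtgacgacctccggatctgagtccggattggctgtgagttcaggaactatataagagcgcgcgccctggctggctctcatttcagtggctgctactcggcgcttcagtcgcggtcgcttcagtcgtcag
Tap1: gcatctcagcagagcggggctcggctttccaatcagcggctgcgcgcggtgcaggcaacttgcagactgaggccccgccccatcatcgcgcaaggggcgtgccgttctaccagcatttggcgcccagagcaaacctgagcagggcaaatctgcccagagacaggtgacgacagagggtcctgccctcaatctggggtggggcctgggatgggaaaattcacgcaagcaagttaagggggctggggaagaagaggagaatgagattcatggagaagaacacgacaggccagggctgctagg
In Psmb8 the match TTCCCAGAA lay 97 to 89 bases before the start. In B2m the match GAAACTGAAA lay 139 to 130 bases before the start, and in Psme1 it lay on the other strand at bases 9 to 18 after the start (printed strand TTTCGCTTTC). These matches are descriptions of letters and not of binding, and no match says only that the letters are not in the window.

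The catalytic subunits stood highest at 33 °C. Psmb8 (also called LMP7), which replaces Psmb5, was measured on both designs. On design a its intensity was 4705 at day 0 of experiment A and 3789 at day 0 of experiment B. In the early phase it was 1587, 1064 and 1221 on days 1, 2 and 3 of experiment A and 1064 on day 2 of experiment B. Both day 0 arrays lay above every array at 39 °C, and 1 day after the shift the gene was at 33.7% of its own day 0. In the middle phase the values were 1005, 616, 747 and 728 on days 4 to 7 of experiment A and 814 on day 4 of experiment B. In the late phase they were 311, 574, 610 and 464 on days 8, 9, 11 and 14 of experiment A and 548 on day 9 of experiment B. The early mean was 3.47-fold below day 0 (log2 change -1.80 ± 0.30, SE), the middle mean 5.47-fold and the late mean 8.65-fold (-3.11 ± 0.29). So the first day at 39 °C held most of the drop on the intensity scale, and a slower one followed over the next days.

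Design b carries another Psmb8 probe set, hybridised separately. It read 6356 and 5116 at day 0 of experiments A and B, then 1770, 1408 and 1422 on days 1 to 3 of experiment A and 1625 on day 2 of experiment B. In the middle phase it read 1347, 827, 953 and 1075 on days 4 to 7 of experiment A and 1352 on day 4 of experiment B, and late it read 808, 815, 671 and 719 on days 8, 9, 11 and 14 of experiment A and 786 on day 9 of experiment B. The order of the phases was the one seen on design a. The early mean was 3.68-fold and the late mean 7.53-fold below day 0 (-2.91 ± 0.27), and the last array, day 14, stood at 11.3% of day 0 against 9.86% on design a.

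Psmb9 (LMP2), the partner that replaces Psmb6, has a probe set on each design, both marked by the maker as common to several related genes, so it is uncertain which transcript they report. On design a the day 0 values were 1480 and 1524 in experiments A and B, and the early values 279, 179 and 310 on days 1 to 3 of experiment A and 522 on day 2 of experiment B. On day 4 it still read 322 and 376 in experiments A and B, while days 5 to 7 and all 5 late arrays were below the floor. The late mean was therefore at least 10.7-fold below day 0. On design b the gene stayed above the floor throughout: 3184 and 2476 at day 0 of experiments A and B, 949, 1197 and 875 on days 1 to 3 of experiment A, 975 on day 2 of experiment B. Its middle values were 870, 1006, 794 and 431 on days 4 to 7 of experiment A and 773 on day 4 of experiment B, and its late values 228, 584, 667 and 492 in experiment A and 585 in experiment B. The 2 probe sets shared the direction and both had day 0 above every later array, with a late mean 5.85-fold below day 0 on design b (-2.55 ± 0.40).

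Psmb10 (MECL-1), which replaces Psmb7, fell out of measurement after day 0. It read 2131 at day 0 of experiment A and 2653 at day 0 of experiment B. Every one of the 14 arrays at 39 °C was below the floor, with the highest at 111, on days 2 and 4 of experiment B. The gene was thus at most 6.62% of its day 0 value on day 1, and each of the 3 phases at 39 °C lay at least 16.9-fold below day 0. It passed the filter on low values only through the day 0 arrays, so a difference from day 0 was built into its being measured.

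**Figure D1:**
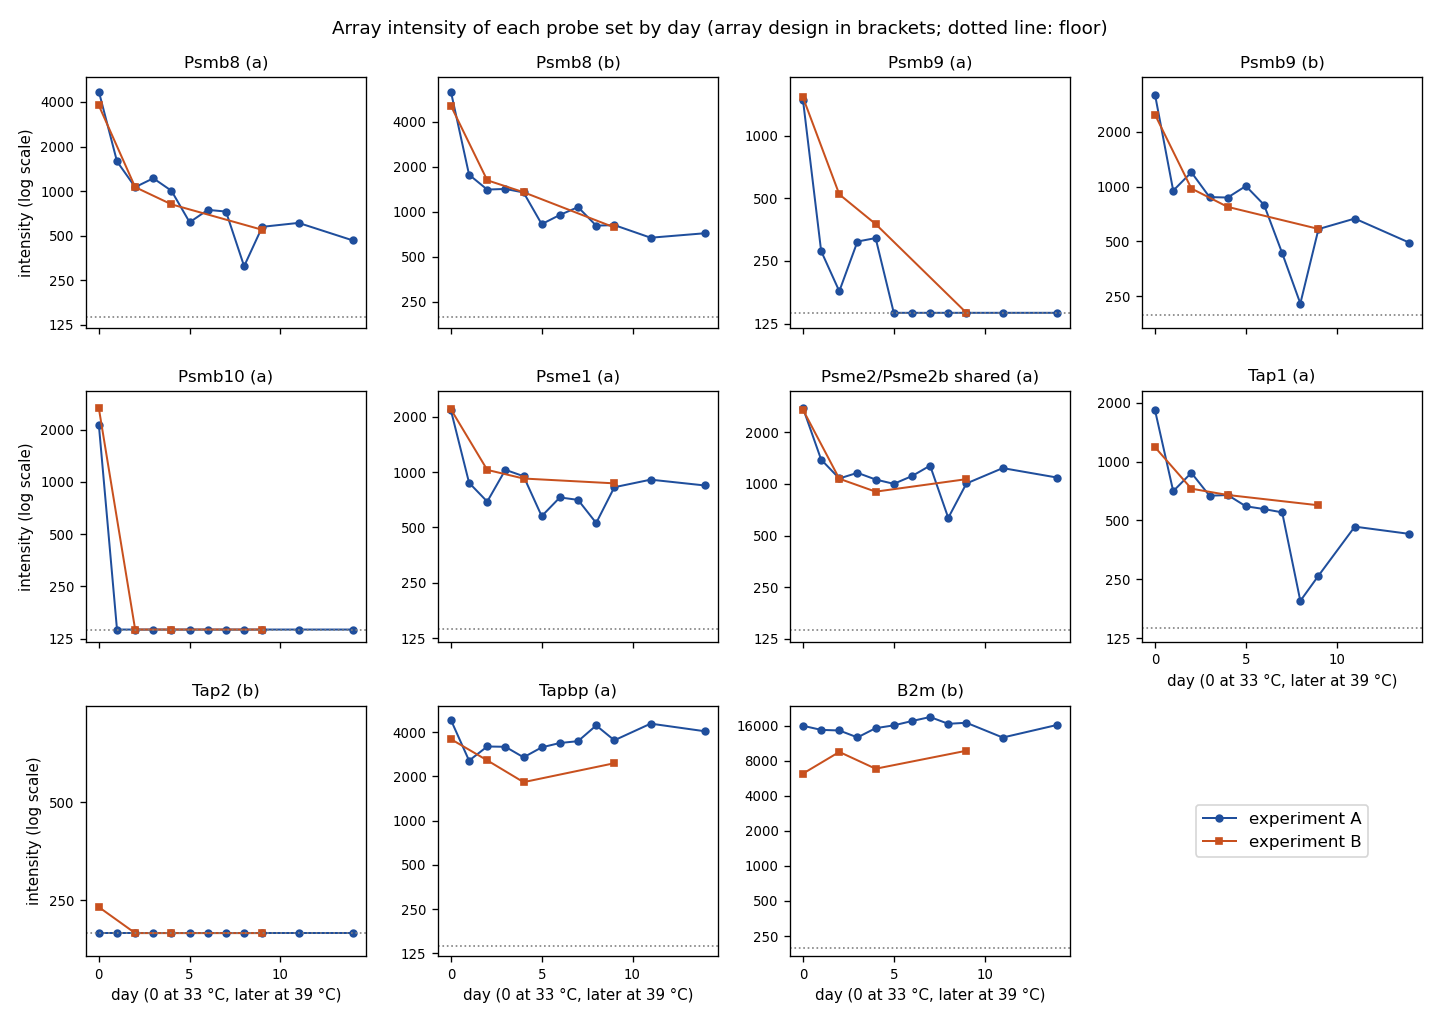
Array intensity (log scale, values below the floor drawn at the dotted floor) against day for each probe set, experiment A in blue circles and experiment B in orange squares, 12 and 4 arrays per design. Both day 0 arrays lie above all later ones for Psmb8, Psmb9, Psmb10, Psme1, Tap1 and the shared Psme2 probe set, while Tapbp and B2m stay high and Tap2 is above the floor on 1 array.

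The PA28 activator caps the proteasome and opens its gate. For Psme1, its alpha subunit, day 0 read 2162 and 2189 in experiments A and B, and the early arrays read 874, 691 and 1028 on days 1 to 3 of experiment A and 1027 on day 2 of experiment B. The middle arrays read 949, 576, 728 and 706 on days 4 to 7 of experiment A and 922 on day 4 of experiment B, and the late arrays 529, 827, 909 and 845 on days 8, 9, 11 and 14 of experiment A and 868 on day 9 of experiment B. The later arrays showed no steady course: the gene was at 40.4% of day 0 on day 1 and 39.1% on day 14. The early mean was 2.43-fold and the late mean 2.78-fold below day 0 (-1.48 ± 0.28). The probe set shared by Psme2 (the beta subunit) and Psme2b read 2775 and 2712 at day 0 and between 634 and 1388 on the 14 later arrays, with a late mean 2.79-fold below day 0. Psme3, the gamma subunit of a separate nuclear activator, was above the floor on 1 array of each design, with 208 at day 0 of experiment A on design a and 222 at day 0 of experiment B on design b.

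Tap1 and Tap2 form the TAP transporter. Tap1 read 1827 and 1184 at day 0 of experiments A and B, then 706, 876 and 669 on days 1 to 3 of experiment A and 727 on day 2 of experiment B. The middle arrays read 675, 591, 572 and 550 on days 4 to 7 of experiment A and 675 on day 4 of experiment B. Late, experiment A read 194, 261, 465 and 427 on days 8, 9, 11 and 14, and experiment B read 598 on day 9. The late arrays did not overlap the early ones, but the experiments stood apart on day 9: Tap1 was at 14.3% of its own day 0 in experiment A and at 50.5% in experiment B. The late mean was 4.09-fold below day 0 (-2.03 ± 0.36). Tap2 could not be followed: its probe set was above the floor on 1 of 16 arrays, day 0 of experiment B, where it read 238, and it was left out of the fits. Tap2 in experiment A read 30 at day 0 and below 0 on every later day.

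Tapasin holds empty MHC class I molecules at the transporter until they are loaded. Tapbp read 4849 and 3590 at day 0 of experiments A and B, 2564, 3200 and 3185 on days 1 to 3 of experiment A and 2575 on day 2 of experiment B. It read 2701, 3157, 3380 and 3478 on days 4 to 7 of experiment A and 1830 on day 4 of experiment B. Late, experiment A read 4449, 3526, 4578 and 4060 and experiment B 2462, so late values overlapped those of day 0. The late mean differed from day 0 by -0.16 ± 0.28 on the log2 scale, the early mean by -0.54 ± 0.29. On day 1 the gene was at 52.9% of day 0 and on day 14 at 83.7%.

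B2m, the light chain of every MHC class I molecule, was bright on all arrays. Its probe set, too, is marked as common to related genes. In experiment A it read 15945 at day 0, 14702, 14530 and 12668 on days 1 to 3, 15208, 16074, 17510 and 18955 on days 4 to 7, and 16576, 16924, 12639 and 16218 on days 8, 9, 11 and 14. In experiment B it read 6200, 9508, 6822 and 9737 on days 0, 2, 4 and 9. Within experiment A no later day was under 79.3% of day 0 or over 119%, while in experiment B day 9 was at 157%. The late mean differed from day 0 by 0.51 ± 0.40 on the log2 scale, and by -0.04 in experiment A alone.

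**Figure D2:**
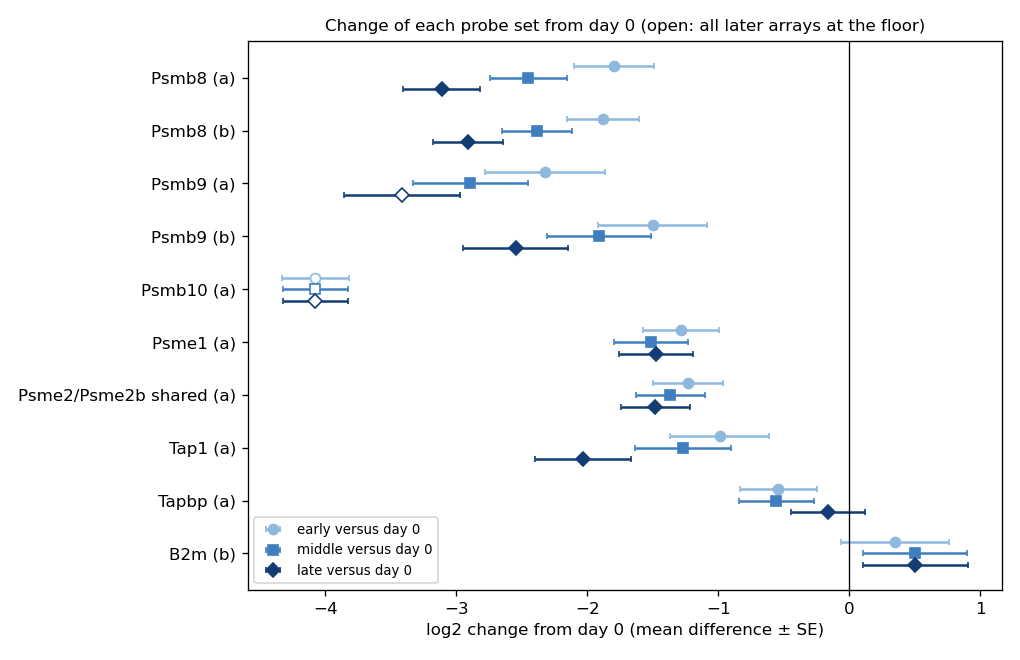
Log2 difference (mean ± SE) of the early, middle and late phase from day 0 for each probe set, from the limma fit of 16 arrays per design. Psmb10 sits at -4.08 in all 3 phases as a lower bound on its drop, the other catalytic subunits move further left from early to late, Psme1 and the shared probe set hold near -1.5, and Tapbp and B2m lie nearest 0.

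Of the 9 member probe sets that passed the filter on low values, 5 were called lower early against 2.05% of all probe sets tested, 7 in the middle phase against 4.58%, and 7 late against 6.08%. With experiment as a block the members numbered 6 early (Psmb9 on design b added), 8 in the middle phase (Tapbp added) and 7 late. Lower calls over all 7726 probe sets tested rose with the block too. They numbered 267 early (158 without it), 496 in the middle phase (354) and 590 late (470). The median log2 change of the 9 member probe sets was -1.50 early, -1.91 in the middle phase and -2.55 late, beside 0.05, 0.08 and 0.11 over all 7726. Both day 0 arrays lay above every array at 39 °C for 7 of them, against 5.63% of all. Psmb10 is in each of these counts, though it passed the filter only through its day 0 arrays. These are the measures on which the genes were chosen, so nothing is read from the counts.

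Late against early compares arrays that were all at 39 °C, so no day 0 array enters it. The same arrays enter the change on which the genes were chosen, so the p-values of members are not free of that choice. Psmb8 fell further between these phases, by 2.49-fold on design a (log2 change -1.32 ± 0.24, limma, adjusted p = 0.0083). The probe set of design b fell by 2.05-fold (-1.03 ± 0.21, adjusted p = 0.0212). On both designs every late array lay below every early one. Such separation was not counted over all probe sets, so nothing is read from it, here or for Psmb9 and Tap1. The call on design b was lost in experiment A alone (limma, adjusted p = 0.0628). It was also lost when 1 culture was left out of both designs (limma). These were day 1 (adjusted p = 0.0875), day 2 (0.059), day 11 (0.0564) or day 14 (0.0566) of experiment A, and likewise day 2 of experiment B (0.0666). The 2 Psmb8 probe sets were the only members called lower, of 9, against 0.557% of all probe sets tested.

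Psmb9 and Tap1 had differences that missed the threshold. Psmb9 was lower late by 2.07-fold on design b (-1.05 ± 0.32, limma, adjusted p = 0.161) and by at least 2.13-fold on design a (adjusted p = 0.195), again without overlap of the phases. Tap1 was 2.06-fold lower (-1.04 ± 0.29, limma, adjusted p = 0.107), and passed without day 9 of experiment B (adjusted p = 0.0428), the array that read 598. Psmb10 was below the floor in both phases, so no fold is given.

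The activator and the later steps of loading showed smaller differences. Psme1 differed by -0.19 ± 0.23 (limma, adjusted p = 0.86) and the shared Psme2 probe set by -0.25 ± 0.21 (adjusted p = 0.779), and their early and late values overlapped. Tapbp differed by 0.38 ± 0.23 (limma, adjusted p = 0.644) and B2m by 0.16 ± 0.32 (adjusted p = 0.932). Whether Psmb8 differs from these genes in its change between the phases was not tested.

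Experiments A and B were compared over days 0, 2, 4 and 9. B2m was the 1 member of 9 called lower in experiment B, where 9.25% of all probe sets were called lower. It was 1.98-fold lower (-0.98 ± 0.16, limma, adjusted p = 0.00936), and the experiments did not overlap: 14530 to 16924 in experiment A against 6200 to 9737 in experiment B. This separation, too, was not counted over all probe sets. The call ended with quantile normalization (-0.27, limma, adjusted p = 0.273), which sets all arrays to 1 distribution. Over left-out cultures the B2m estimate ranged from -1.11 to -0.86. The call also ended when 1 culture was left out of both designs (limma, adjusted p in brackets). These were from experiment A day 0 (0.0609) or day 4 (0.0601), and from its replica day 0 (0.0813), day 2 (0.0885) or day 4 (0.06). Among the 50 brightest probe sets of design b, in which B2m ranks 22, the median difference between the experiments was -0.83, beside -0.07 over all 3432 tested on that design. This set was looked at after the B2m values were seen, and the part of brightness in the difference was not tested. The Gapdh control ratio of the 3′ to the 5′ probe set is a sign of RNA quality. On design b at these matched days it was 0.994 to 1.29 in experiment A and 0.795 to 0.889 in experiment B. Its part was not tested either.

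Tapbp was 1.37-fold lower in experiment B (-0.46 ± 0.14, limma, adjusted p = 0.062), which missed the threshold. The members that stood high at day 0 showed smaller or less precise differences between the experiments. Psmb8 differed by -0.17 ± 0.16 (design a) and by -0.04 ± 0.15 (design b), and Psme1 by 0.15 ± 0.18 (limma, adjusted p = 0.477, 0.876 and 0.56). Psmb9 differed by 0.45 ± 0.31 on design a and -0.21 ± 0.16 on design b, with opposite signs and neither called. Tap1 differed by 0.08 ± 0.30.

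**Figure D3:**
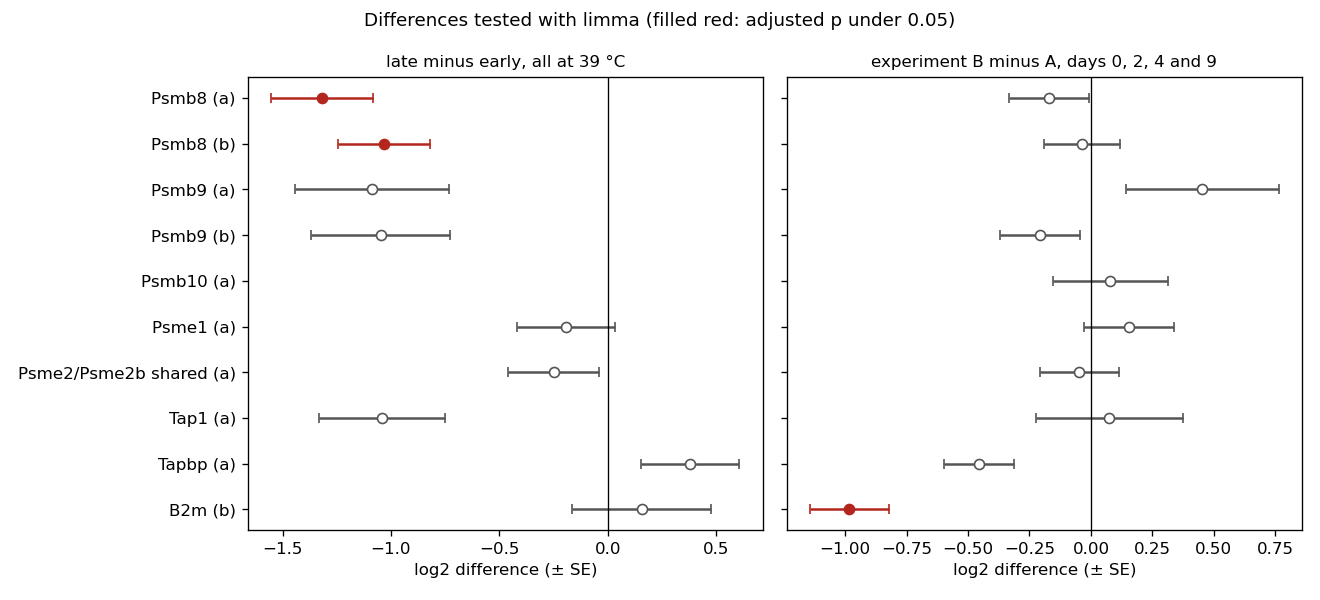
Log2 differences (± SE) of late minus early arrays at 39 °C (left, 5 against 4 arrays per design) and of experiment B minus A at the 4 matched days (right, 4 against 4). Filled red points passed limma at an adjusted p under 0.05: both Psmb8 probe sets on the left and B2m on the right. Psmb10 is blank on the left because both phases are below the floor.

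Whether the change from day 0 itself differed between the experiments was tested as an interaction. No member was called, with estimates from -0.03 for Tapbp to 0.93 for Tap1 among the probe sets above the floor at 39 °C. The estimate for Psmb10 (-0.32) only restates the difference of its day 0 values, because all its later arrays are at the floor. The fit has 4 residual degrees of freedom and called 0.0% of the 7407 probe sets in it (limma; 526 had an unadjusted p under 0.05, and 18 were called with eBayes without trend and robust), so it says little about the members.

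The subunits that the immunoproteasome replaces were read beside them. Psmb6, the counterpart of Psmb9, read 3702 and 3277 at day 0 of experiments A and B and between 1741 and 3748 later, and late differed from day 0 by -0.56 ± 0.26 (limma, adjusted p = 0.223). Psmb7, the counterpart of Psmb10, read 584 and 1747 at day 0 and between 285 and 1119 later, and differed late by -0.89 ± 0.50 (adjusted p = 0.315). Unlike Psmb10, Psmb7 stayed above the floor on every array. Psmb7 was 2.41-fold higher in experiment B at matched days (limma, adjusted p = 0.00787), where 7.07% of all probe sets were called higher. Psmb5 had no probe set with its symbol.

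Other proteasome genes were lower where they were called. Of 17 constitutive core probe sets, 5 fell late against day 0, 0 rose and 12 did not pass, with a median log2 change of -0.93. Over all probe sets tested, 6.08% were called lower and 4.84% higher late against day 0, the share against which the counts of this and the following lists stand. Psma7 fell 3.02-fold, 1 of the Psmb3 probe sets 2.73-fold and Psma5 2.19-fold (limma, adjusted p = 0.0259, 0.00904 and 0.00449). These are structural subunits of the barrel. Of 20 probe sets of regulators, mostly subunits of the cap that recognises ubiquitin-tagged proteins, 6 fell, 0 rose and 14 did not pass, with a median of -0.83. Psmd14, the deubiquitinase of the cap, fell 2.72-fold and Psmc4, an ATPase of its base, 2.28-fold (limma, adjusted p = 0.0363 and 0.0248). Late against early, 0 of 17 core and 0 of 20 regulator probe sets were called, with medians of -0.30 and -0.10, beside 0.557% called lower among all probe sets. Whether Psmb8 differs from them in this change was not tested.

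Few probe sets of the loading chaperones, peptidases, heavy chains and the class II route were called late against day 0. Of 10 probe sets of loading chaperones and peptidases, 0 were called late against day 0, with a median of 0.29. Of 8 probe sets of MHC class I heavy chains, 1 fell and 7 did not pass, with a median of -0.77. The one that fell was a probe set of H2-K1, which read 13935 and 6568 at day 0 of experiments A and B and 3650 to 6001 on the late arrays (1.94-fold, limma, adjusted p = 0.038). The day 0 values of the experiments differed from each other more than experiment B differed between day 0 and day 9, where it read 5809. Heavy chain sequences are close to each other, so reads of single H2 genes are uncertain. Of 15 probe sets of the MHC class II route, 0 were called late against day 0, with a median of -0.22.

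Genes of the interferon response were read beside the members. Of 17 probe sets of interferon signalling and class I regulators, 2 fell, 2 rose and 13 did not pass late against day 0, with a median of 0.07. Irf1, a transcription factor that binds response elements of class I genes, read 4505 and 2241 at day 0 of experiments A and B, 1191, 2314 and 1220 on days 1 to 3 of experiment A and 925 on day 2 of experiment B. Its late arrays read 964 to 1489 in experiment A and 813 in experiment B, a fall of 2.79-fold (-1.48 ± 0.36, limma, adjusted p = 0.0101). Irf1 late against early differed by -0.22 ± 0.29. Of the 2 Irf1 windows, that at chr11:53769764-53770063 on the plus strand holds the gamma-activated core TTCCCCGAA, 90 to 82 bases before the start, and that at chr11:53770223-53770522 holds neither motif.

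Socs1, an inhibitor of the interferon receptor kinases that is itself induced by interferon, was also measurable at day 0 and under the floor soon after. It read 770 and 441 at day 0 and was below the floor on every early and middle array, so those phases lay at least 4.13-fold below day 0 (limma, adjusted p = 0.00316 early). Late, it was again above the floor on days 11 and 14 of experiment A, at 226 and 398, while Psmb10 was not. The receptor chain gene Ifngr1 ran the other way: it read 127 and 119 at day 0, under the floor, and 231 to 423 late, at least 2.41-fold higher (limma, adjusted p = 0.017). Rela, a subunit of NF-kappa-B outside the naming rule and picked after its value was seen, was the other that rose (adjusted p = 0.0249), where 4.84% of all probe sets were called higher.

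**Figure D4:**
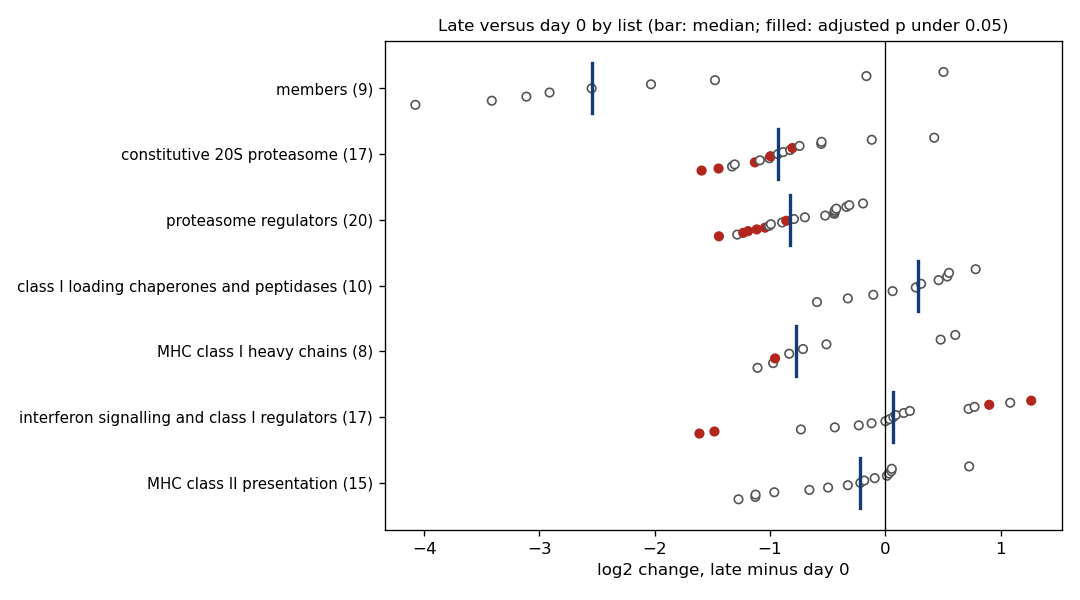
Log2 change late minus day 0 for each tested probe set (points) with the median of its list (blue bar), number of probe sets in brackets, filled red where limma gave an adjusted p under 0.05. The 9 members, drawn without calls because they were chosen on this change, have a median of -2.55, the constitutive core -0.93, the regulators -0.83, and the other 4 lists drawn between -0.77 and 0.29.

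The probe sets whose course over the 16 cultures was most like that of each catalytic subunit were listed by Pearson's r of log2 values, as a description: the day 0 arrays and the experiments are shared by all points. For Psmb8, Nme2, a nucleoside diphosphate kinase, came first on both designs (r = 0.933 on a and 0.947 on b over 16 cultures, and 0.781 and 0.807 over the 14 at 39 °C). On design a it was followed by the translation factor gene Eif2s2 (0.923), the ribosomal protein gene Rpl29 (0.915), the core proteasome subunit Psma5 (0.905) and Phgdh of serine synthesis (0.904). On design b it was followed by Mybbp1a (0.939), Syncrip (0.935), the ribonucleotide reductase subunit Rrm2 (0.934) and cytochrome c, Cycs (0.928). For Psmb9 on design a the nearest were Usp14 (0.947) and Uchl5 (0.941), a pair of deubiquitinases that sit on the proteasome, then Rrm2 (0.935), the fatty acid-binding protein Fabp5 (0.916) and the core subunit Psma3 (0.913). Its probe set on design b was nearest to Nme2 (0.88), Psma5 (0.875), the cyclin Ccnb2 (0.865), the replication helicase subunit Mcm7 (0.853) and Psmd8 of the proteasome cap (0.849). For Psmb10 the nearest were Mphosph10 and Gbp3, the latter a guanylate-binding protein of the interferon-inducible family (both 0.998), then Rpf2 (0.997), Mybl2 (0.996) and Ddx46 (0.992). Since Psmb10 was at the floor on all 14 arrays at 39 °C, its likeness rests on the 2 day 0 arrays, and no r at 39 °C exists.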

How the data were processed

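Total RNA of UB/OC-1 was measured on 32 arrays, 16 per design. The deposited values are array intensities, linear whole numbers that the authors had scaled: the mean after leaving out 2% at each end was 300.0 on every array. Negative values made up 22.9% of design a and 33% of design b. The software is not given in the sources used here. Probe sets numbered 6584 and 6595, with 61 controls per design left out. Gene symbols came from the platform annotation, with 1 symbol for 5541 and 2001, several for 197 and 27 and none for 785 and 4506.

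As floor served, for each design, the 75th percentile of its negative values taken without their sign. Lower values were raised to it before log2. A probe set needed 2 of 16 arrays above it to be tested, and 7726 were. A fold against a group wholly at the floor is a lower bound, and tied values can make p too small. Models used limma 3.58.1 in R 4.3.3 (lmFit, eBayes with trend and robust), per design, with two-sided tests and Benjamini-Hochberg adjustment over both designs at 0.05. The phase fit had 12 residual degrees of freedom and the fit of experiment B against A, with day as a factor, had 3; in that fit 7407 probe sets varied. The fits were also run on simulated data with independent normal scatter and no ties at the floor. That run does not show how the fits behave with tied values or with arrays that vary together. The number of arrays limits the precision.

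Differences between experiments B and A correlated between days (r from 0.326 to 0.702, 6 day pairs), which makes experiment a pairing. For members, values with the block stand beside a result or count where they change a call. For the lists and the other named genes, calls with the block were not looked at.

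Members and lists were chosen with earlier results of these data known. Named beside the members were Psmb5, Psmb6, Psmb7, Psme3, Irf1, up to 3 called probe sets per list with the largest change late against day 0, and the 5 probe sets most like each catalytic subunit. A further item of that rule is not reported here. Promoters are from RefSeq. Alternatives were the floor, the filter, quantile normalization, eBayes without trend and robust, the block, experiment A alone and leaving out each culture.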

Additional observations from a re-analysis of the deposited data

Results flagged for a closer look

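In 3 of 23 groups of member values that had a spread to test, 1 array stood apart from the rest of its phase by Dixon's criterion, which chance meets in about 1 in 20 groups. Both late ones are day 8 of experiment A: Psmb9 on design b read 228, and Psme1 on design a read 529. On that day 4 of the 7 member probe sets that were above the floor on all late arrays had their lowest late value, while 19.3% of all 3783 such probe sets did. The third is B2m on design b, at 6822 on day 4 of experiment B, the only array of experiment B in the middle phase.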

How the results depend on the processing

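Of 1069 values of 53 single results of members under alternatives, 1017 kept direction and side of the threshold, 24 lost a call, 9 gained one and 19 changed direction. These pool the changes from day 0, on which the genes were chosen, with comparisons in which few or no members were called. Most values were therefore bound to keep their side of the threshold, and nothing is read from this tally. With experiment as a replicate block, called probe sets numbered 469 early (270 without it), 959 in the middle phase (633) and 184 late against early (76). The block added 2 member calls against day 0, given in the report, and changed no other member's call. In experiment A alone the counts were 164 early, 551 late (844 in all arrays) and 1 member late against early. In experiment B against A, a filter on 8 arrays gave 2 members (Tapbp added) and quantile normalization 0. The interaction called 136 probe sets with the higher floor, 275 with no filter and 18 with plain eBayes. Early higher and lower calls were 112 and 158; the lower floor gave 121 and 98, the higher floor 87 and 210, testing only probe sets seen on 8 arrays 113 and 95, and experiment A alone 43 and 121.

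Leaving out 1 culture, called probe sets ranged from 126 to 338 early (fewest without day 0 of experiment B), from 321 to 717 in the middle phase and from 402 to 929 late, both fewest without that array. Late against early they ranged from 30 to 118 (fewest without day 2 of experiment A), in experiment B against A from 0 to 1115 (0 without day 0 of experiment A, day 0 of experiment B or day 2 of experiment B) and in the interaction from 0 to 437 (most without day 2 of experiment A). Members called ranged from 3 to 6 early, 1 to 3 late against early and 0 to 1 in experiment B against A. In the middle phase against day 0, Tap1 lost its call without day 4, 5, 6 or 7 of experiment A (limma, adjusted p = 0.0546, 0.0656, 0.0641 and 0.0728). Its estimate there ranged from -1.58 to -0.96 over left-out cultures. Causes were not tested.

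The sign turned for values that no setting called. Late, Tapbp was 0.00016 with quantile normalization and ranged from -0.38 to 0.0535 over left-out cultures. B2m in experiment A alone was -0.19 early and -0.0422 late, and it ranged from -0.33 to 1.03 early, -0.18 to 1.18 in the middle phase and -0.18 to 1.19 late, lowest without day 0 of experiment B. In experiment B against A, Psmb8 on design b was 0.0747 with quantile normalization and ranged from -0.12 to 0.0533, the shared Psme2 probe set from -0.0914 to 0.015 and Tap1 from -0.30 to 0.31. In the interaction, Psmb10 was 0.21 with the lower floor and Psmb8 on design a -0.0578 with quantile normalization; ranges were -0.14 to 0.12 for Tapbp, -0.0624 to 0.0628 for the shared probe set, -0.0944 to 0.44 for Psmb8 on design a and -0.0603 to 0.46 for Psmb9 on design b.

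Signal over background limits Psmb10 and Psmb9 on design a at 39 °C and Tap2 throughout.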
